A study of Mus musculus with 4 samples.

Results

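Fbp1 and the enzymes that act beside it in gluconeogenesis were examined in cells washed from the airspaces of mouse lungs (bronchoalveolar lavage fluid, BALF). The group held 10 genes, which were Fbp1 and Fbp2, Pck1 and Pck2, Pcx, G6pc3 and Pfkfb1 to Pfkfb4. They were reached by 13 of the 39429 non-control probes, each matched through the RefSeq accession that the array files give for it. Fbp1 was selected on its log2 difference between the genotypes on these same arrays, and the others were chosen by their roles beside it with their differences known, so the values of all 10 genes are given as a description without a test.

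The study compared wild-type mice with S1pr2-/- mice, which carry a targeted disruption of the gene for the sphingosine-1-phosphate receptor S1PR2 in all cells, and asked how its loss alters mRNA in BALF cells during lung fibrosis. Both groups were littermates from heterozygous matings on a mixed 129Ola;C57BL/6J background backcrossed to C57BL/6J a single time, and the methods give an age of 8 to 10 weeks for the fibrosis model. All animals received intraperitoneal bleomycin, a drug that scars the lung, at 0.035 U/g in 2 injections a week, and RNA was taken on day 22, so that no saline-treated array entered the comparison. RNA from 2 samples per genotype was hybridized to 4 one-color arrays on 1 slide with 1 scan, and the sources used here do not state whether an array held cells of several mice. The SDs therefore measure the spread between these samples and not between single mice. Standard errors from the limma fit are moderated, so they also draw on the spread of all fitted probes. With 2 arrays per genotype an exact two-sided permutation test cannot go below p = 0.333.

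Gluconeogenesis makes glucose from lactate, amino acids and glycerol, mainly in liver and kidney. It uses most enzymes of glycolysis in reverse and bypasses the irreversible steps with its own enzymes: pyruvate carboxylase and phosphoenolpyruvate carboxykinase, fructose 1,6-bisphosphatase, and glucose 6-phosphatase. Fructose 1,6-bisphosphatase opposes phosphofructokinase, and both are controlled by fructose 2,6-bisphosphate, which the bifunctional PFKFB enzymes make and break down. Fbp1 is best known from liver and kidney but is also transcribed in monocytes and macrophages.

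The Fbp1 gene lies on the minus strand of chromosome 13 (GRCm38.p6, 62864753 to 62888298), next to its paralog Fbp2 (62836884 to 62858400). The 234 bases before its outermost RefSeq start are shown because Fbp1 was the member whose signal differed most, and they are read on the gene's strand from RefSeq (chr13:62888299-62888532). Capitals mark a match to AGATAA, a form that GATA factors recognize, 95 to 100 bases before the start.
Fbp1 upstream: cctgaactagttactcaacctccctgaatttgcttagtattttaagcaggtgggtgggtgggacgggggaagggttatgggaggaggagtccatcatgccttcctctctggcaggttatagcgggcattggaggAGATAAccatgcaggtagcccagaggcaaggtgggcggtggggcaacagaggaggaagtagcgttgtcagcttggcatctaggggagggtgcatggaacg
This motif was chosen after the sequence had been read. On both strands, AGATAA was found in 9.61% of 32851 mouse upstream windows of the same length. The same stretch held 1 GGGCGG box, 63 to 68 bases before the start, a motif present in 30.4% of the windows. The TATA form TATAAA, present in 11.9% of windows, was not among these letters, and the matches did not overlap. The matches are a description of the sequence and not of factor binding.

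The arrays measured 39359 probes on all 4 arrays, with between 67.6% and 72.2% of probes well above background. Levels are log2 ratios of a probe's processed signal to the 75th percentile of its array, and differences are S1pr2-/- minus wild-type. The targeted gene went against its label. In wild-type, S1pr2 stood at -0.13 and -0.16, against 2.67 and 2.54 under the S1pr2-/- label, a signal 6.72-fold higher there (log2 difference 2.75, standard error 0.072). Whether its probe lies in the disrupted part of the gene is not given in the sources used here, and directions are given as labelled.

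Fbp1, which encodes the fructose 1,6-bisphosphatase of liver, kidney and monocytic cells, gave a strong signal on the wild-type arrays and one near background on the arrays labelled S1pr2-/-. Its processed signal was 6412 and 8742 intensity units in wild-type, against 44.2 and 46.7 on the arrays labelled S1pr2-/-. On the log2 scale the levels were 1.33 and 1.81 against -5.99 and -5.79, that is 1.57 ± 0.34 (SD, n = 2) against -5.89 ± 0.15 (SD, n = 2). The groups lay far apart, with a log2 difference of -7.46 (standard error from limma 0.213), or a 176-fold lower signal. Replicates within a genotype were close by comparison, with a difference of 0.49 in wild-type and 0.21 under the S1pr2-/- label.

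Expressed differently, Fbp1 stood at 251% and 351% of the 75th percentile on the wild-type arrays and at 1.57% and 1.81% on the others. The remaining signal was still called well above background on both of these arrays. Before background correction the single Fbp1 spot read 100 and 111 intensity units there, over local backgrounds of 33 and 31, and its processed signal was 2.37 and 3.16 times the lowest signal called well above background. The size of the fold hence depends on how background is handled. It was 38.4-fold under normexp background correction with an offset of 50, and it was at least 112-fold when the percentile was taken over detected probes, where both low values fell on the floor of 0.01.

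Among the 15432 named genes tested, only Ccl24 had a more negative difference than Fbp1. Ccl24, the eotaxin-2 chemokine that attracts eosinophils, was at least 294-fold lower in this scaling, with 1 of the arrays labelled S1pr2-/- at the floor. Gata1 followed at -5.58. Over all tested genes the median absolute difference was 0.118, and 93.0% of genes differed by less than 0.5.

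**Figure D1:**
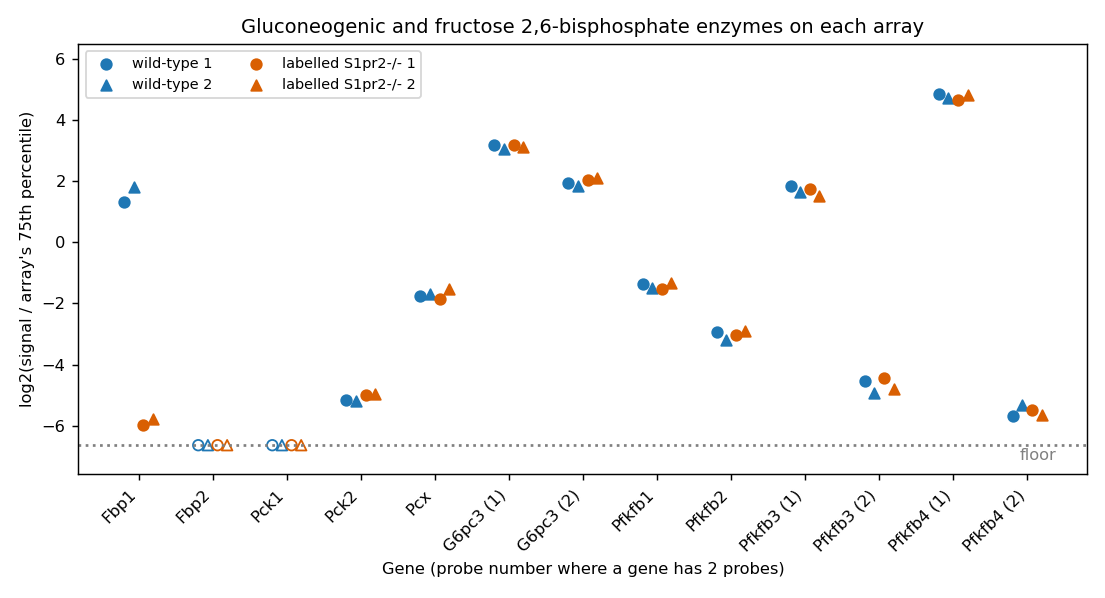
Level of each of the 13 probes on the 4 arrays, on the log2 scale relative to the 75th percentile; blue is wild-type, orange is labelled S1pr2-/-, circles are replicate 1 and triangles replicate 2, and open symbols are probes not well above background on any array. The difference is -7.46 for Fbp1 and runs from -0.12 to 0.20 for the other tested probes.

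The other fructose 1,6-bisphosphatase gave no measurable signal. Fbp2, the muscle isozyme, read between 3.90 and 6.51 intensity units and was not well above background on any of the 4 arrays. A difference between the genotypes in Fbp2 was therefore not measurable.

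Phosphoenolpyruvate carboxykinase turns oxaloacetate into phosphoenolpyruvate. The cytosolic form Pck1, the classic hormone-controlled gene of liver gluconeogenesis, read 3.81 to 14.3 intensity units, on no array well above background. The mitochondrial form Pck2 was detected at low signal on every array. Its levels were -5.16 and -5.21 in wild-type, against -5.02 and -4.96 on the arrays labelled S1pr2-/-. The groups did not overlap, and the difference was 0.20 (standard error 0.059), a 1.15-fold higher signal. Pck2 was printed in 10 spots per array, and the SD between spots of one array was 0.075 to 0.099 on the log2 scale, a measure of technical spread only. Under normexp correction the Pck2 difference became 0.90, while the median of all genes moved to 0.12.

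Pyruvate carboxylase (Pcx) makes the oxaloacetate that Pck1 and Pck2 consume. It was detected at -1.76 and -1.71 in wild-type and at -1.85 and -1.53 on the arrays labelled S1pr2-/-. The arrays of the 2 genotypes overlapped, with a difference of 0.04 (standard error 0.137).

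Glucose 6-phosphatase removes the phosphate from glucose 6-phosphate as the last step. G6pc3, its widely expressed form, which is needed for neutrophil function, was bright on all arrays. Its brighter probe gave 3.20 and 3.07 in wild-type against 3.20 and 3.14 under the S1pr2-/- label, a difference of 0.04 (standard error 0.078) with overlapping groups. The other G6pc3 probe gave 1.95 and 1.86 against 2.05 and 2.12, a difference of 0.18 (standard error 0.071) without overlap. The 2 probes of this gene thus gave different answers on overlap.

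PFKFB enzymes set the amount of fructose 2,6-bisphosphate, the inhibitor of fructose 1,6-bisphosphatase. Pfkfb4 was detected by its brighter probe at 4.86 and 4.74 in wild-type and at 4.67 and 4.82 on the arrays labelled S1pr2-/-. Its other probe was far dimmer and close to background, at -5.68 and -5.34 against -5.49 and -5.64. Pfkfb3, the inducible form, stood at 1.85 and 1.65 against 1.75 and 1.51 by its brighter probe. The dim Pfkfb3 probe gave -4.55 and -4.94 against -4.44 and -4.81. Pfkfb1 stood at -1.36 and -1.48 against -1.53 and -1.34, and Pfkfb2 at -2.94 and -3.19 against -3.02 and -2.91. All 4 PFKFB genes overlapped between the genotypes on every probe. The differences were -0.01 for Pfkfb1 (standard error 0.103), 0.10 for Pfkfb2 (0.118), -0.12 and 0.12 for the 2 Pfkfb3 probes (0.134 and 0.219) and -0.05 and -0.06 for the 2 Pfkfb4 probes (0.092 and 0.154).

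Counted together, 8 of the 10 genes and 11 of the 13 probes passed the filter on low signal, and Fbp1 would have passed it from its wild-type level alone. Among the 7 tested genes other than Fbp1 the differences ran from -0.12 to 0.20, with a median of 0.04. Of these 7 genes, 0 were lower without overlap, 1 was higher without overlap (Pck2) and 6 overlapped, where 21.9% of all tested genes were lower and 22.1% higher without overlap. None of the 7 passed 2-fold in either direction, against 1.5% of all tested genes lower and 0.207% higher. These counts describe genes selected with their values known.

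**Figure D2:**
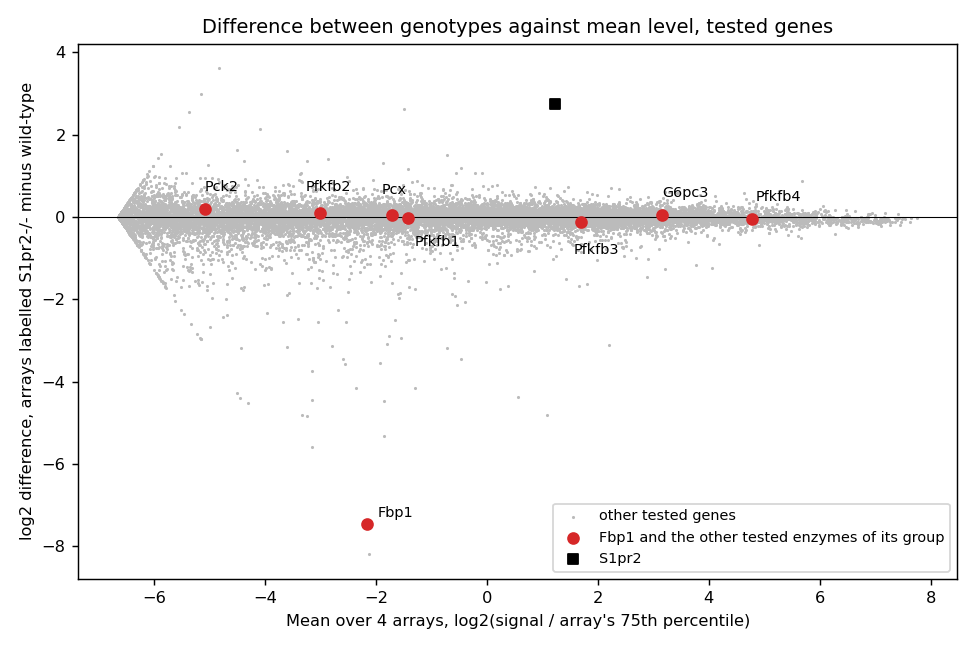
Difference between genotypes (arrays labelled S1pr2-/- minus wild-type, log2) against the mean level over the 4 arrays (log2 of signal over the 75th percentile) for 15432 tested genes, one probe per gene. Fbp1 lies at -7.46, the other 7 tested enzymes of its group (red) lie between -0.12 and 0.20, and S1pr2 (black square) lies at 2.75.

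Fbp1 was then set against its partners and opponents by their differences. Its change less the change of each of 11 such enzymes (Pfkl, Pfkm, Pfkp, Pfkfb1 to Pfkfb4, Tigar, Pcx, Pck2 and G6pc3) ran from -7.83 against Pfkl to -7.28 against Pfkp. The ratio of Fbp1 signal to phosphofructokinase signal was therefore 228-fold lower on the arrays labelled S1pr2-/- for the liver-type Pfkl, 215-fold for the muscle-type Pfkm and 155-fold for the platelet-type Pfkp. Under normexp correction these ratios were 48.8-fold, 54.5-fold and 34.1-fold lower. The phosphofructokinases themselves differed by 0.37 (standard error 0.095), 0.29 (0.097) and -0.18 (0.121). Tigar, a phosphatase that also acts on fructose 2,6-bisphosphate, differed by 0.03 (0.057).

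The wider pathway was followed in 6 lists with 81 genes, of which 73 were tested. Of the other 8, 6 were on no array well above background, Hnf4a was above it on 2 arrays, and Mdh1 had an array left out for its spot flags. No gene of the 73 passed limma's adjusted p of 0.05, nor did any of the 15432 genes (0% lower and 0% higher). At an unadjusted p under 0.05, 4 pathway genes were lower (5.48%) and 5 higher (6.85%), against 5.95% and 4.54% of all tested genes. Without overlap between genotypes, 17 were lower (23.3%) and 14 higher (19.2%), near the 21.9% and 22.1% of all tested genes. The median difference of the 73 genes was 0.02, beside 0.00 for all genes. Only Slc2a3 passed 2-fold, and 0 genes passed both 2-fold and an unadjusted p under 0.05, against 0.953% of all genes. The balance of lower to higher calls over all genes depended on scaling: 56.7% of the unadjusted calls were lower here, 44.1% with the percentile over detected probes and 37.4% after quantile normalization.

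Glucose entry held the largest difference in these lists. Slc2a3, a high-affinity glucose transporter of neurons and leukocytes, stood at -2.19 and -1.02 in wild-type and at -2.63 and -3.02 on the arrays labelled S1pr2-/-. Its groups did not overlap, but its wild-type arrays differed by 1.18, and the difference of -1.22 had a standard error of 0.487 (adjusted p = 0.544, limma with Benjamini-Hochberg adjustment). The Slc2a3 difference fell short of 2-fold without wild-type replicate 2 (-0.63) and under normexp correction (-0.63), and was -1.81 without wild-type replicate 1. Slc2a1, the basal glucose transporter, was steadier, at 2.77 and 2.79 against 2.41 and 2.35. Its difference was -0.40 (standard error 0.059, limma unadjusted p = 0.00467, adjusted p = 0.509).

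In the one-way steps of glycolysis the 2 largest differences were -0.43 for Hkdc1, a hexokinase-like gene near the floor, and 0.37 for Pfkl. Neither passed the adjusted test (adjusted p = 0.568 and 0.511, limma). Of the enzymes shared by both directions, the muscle enolase Eno3 had -0.37 and triosephosphate isomerase Tpi1 had 0.15. Their adjusted p from limma was 0.518 and 0.59.

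Among genes that supply carbon, the largest differences were 0.63 for Pdk4, a kinase that shuts off pyruvate dehydrogenase and so spares pyruvate, and 0.38 for the mitochondrial citrate carrier Slc25a1. Pdk4 stood at 0.28 and 0.01 in wild-type and at 0.90 and 0.66 on the arrays labelled S1pr2-/-, without overlap (adjusted p = 0.509, limma). Glycerol kinase (Gk), which lets glycerol enter the pathway, was lower by unadjusted p only, with a difference of -0.32 (standard error 0.054). In fructose metabolism, Tkfc had 0.33 and ketohexokinase (Khk) 0.25. Among regulators the coactivator Ppargc1a had -0.45 and the nuclear receptor Esrrg 0.37, both at low signal, and the regulators' median was -0.01. Gk was named after its values were seen.

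**Figure D3:**
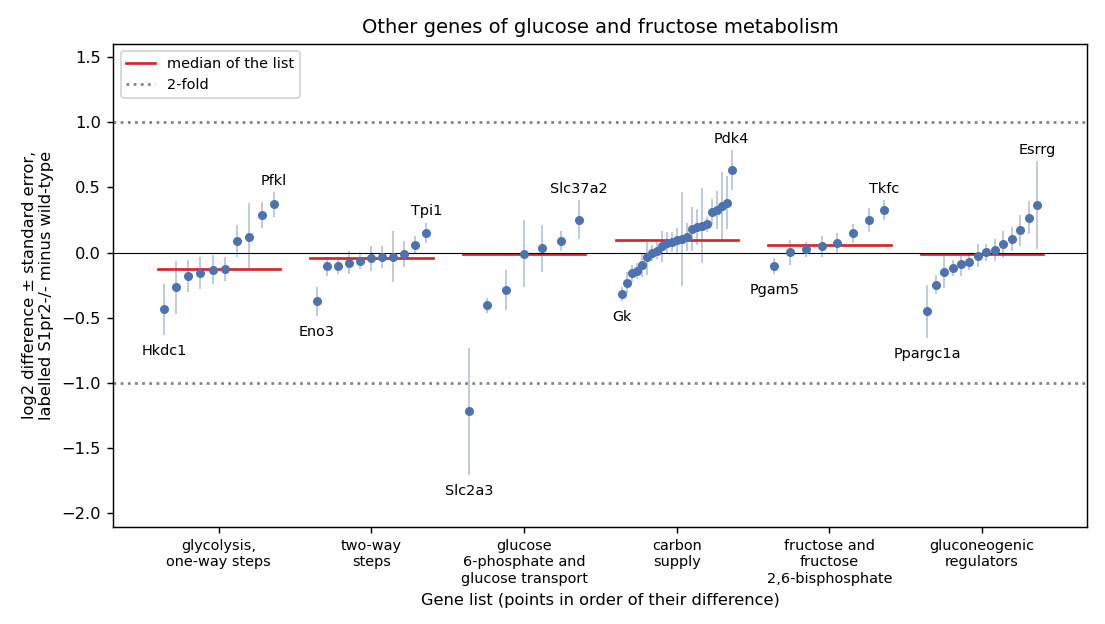
Differences between genotypes (log2, arrays labelled S1pr2-/- minus wild-type) with limma's standard error for the 73 tested genes of 6 lists; red lines are list medians and dotted lines mark 2-fold. Slc2a3 at -1.22 is the only gene beyond 2-fold, and the list medians lie between -0.13 and 0.09.

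The genes with the profile most like that of Fbp1 were found by the Euclidean distance between the 4 log2 values, each centered on its gene's mean. The 6 nearest of 15432 genes were Ccl24 (distance 1.32), Gata1 (2.09), Prg2 (2.40), Padi4 (2.80), Retnlg (2.83) and Alox15 (2.98). Over only 4 arrays this measure mainly finds genes with a difference of similar size between the genotypes. Gata1 is a transcription factor of erythroid cells, mast cells and eosinophils, Prg2 encodes eosinophil major basic protein and Alox15 a lipoxygenase of eosinophils and alternatively activated macrophages. Padi4, a histone-citrullinating enzyme, and Retnlg, a resistin-like protein, are known from granulocytes.

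The wild-type arrays set these genes apart from Fbp1 in value. All 6 were higher on the second wild-type array than on the first by 1.47 to 1.96 on the log2 scale, or 2.78-fold to 3.88-fold, whereas Fbp1 was higher by 0.49, or 1.40-fold. Prg2, for example, stood at -0.07 and 1.69 in wild-type and at -5.04 and -3.99 on the arrays labelled S1pr2-/-. The Fbp1 difference between the wild-type arrays was larger than that of 91.8% of tested genes.

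Markers of other cell types differed between the arrays together with Fbp1, those of eosinophils by the most. The labels name alveolar macrophages, and their defining markers Marco, Siglecf, Fabp4 and Car4 were bright on all 4 arrays, with summed levels of 189 and 200 times the 75th percentile in wild-type and 194 and 192 on the arrays labelled S1pr2-/-. The even sum hides differences of opposite sign. Fabp4 differed by 0.58, Car4 by -0.28 and Siglecf by -0.15, each without overlap, and Marco by -0.04 with overlap. Over the 12 genes of the macrophage list the median difference was -0.04, with 2 genes lower and 2 higher without overlap. That is 16.7% each, below the 21.9% and 22.1% of all tested genes. The defining eosinophil markers Prg2, Epx, Ccr3 and Il5ra summed to 2.08 and 6.62 in wild-type and to 0.113 and 0.186 on the arrays labelled S1pr2-/-. Of 9 tested genes on the eosinophil list, 7 were lower without overlap and 6 were more than 2-fold lower, with a median of -4.47, against 21.9% and 1.5% of all tested genes, while Ear1 and Ear2, which alveolar macrophages also express, differed by -0.07 and -0.12.

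Epx, the eosinophil peroxidase, shows the pattern at the lowest signal, from -2.96 and -1.13 in wild-type to the floor of -6.64 and to -6.50. The 6 eosinophil genes past 2-fold, of which Gata1, Prg2 and Alox15 are also among the 6 nearest genes, were higher on the second wild-type array by 1.44 to 1.96. The part of eosinophils or of any other cell type in the Fbp1 difference was not tested, and in RNA from mixed cells fewer cells of a type and less RNA per cell cannot be told apart.

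Other lists had smaller medians. The defining neutrophil markers on the array (Cxcr2, Mpo and Ltf) summed to 3.05 and 3.81 in wild-type and to 2.68 and 5.01 on the arrays labelled S1pr2-/-. Ltf weighed most in each sum, at 0.84 and 1.33 in wild-type and at 0.81 and 2.08 under the S1pr2-/- label. The 10 tested genes of the neutrophil list had a median of -0.19. Of these, 5 were lower without overlap and 1 higher, and 2 were more than 2-fold lower, Retnlg at -4.81 and S100a9 at -1.46, while Cxcr2 differed by -0.59. Over all tested genes, 21.9% were lower and 22.1% higher without overlap, and 1.5% were more than 2-fold lower. For monocyte-derived macrophages the list median was 0.28 over 9 tested genes. In the mast cell and basophil list, the defining genes Cpa3, Fcer1a and Ms4a2 lay at the floor on all 4 arrays. Cpa3 was nevertheless called well above background on 2 of the arrays, and Fcer1a and Ms4a2 on none. The T cell list had a median difference of -0.32 over 5 genes, the B cell list -0.72 over 5, the NK cell list -0.03 over 5 and the dendritic cell list -0.21 over 5. The median was -0.34 over 5 genes of alveolar type 2 cells, 0.33 over 6 of airway cells, 0.77 over 4 of fibroblasts and 0.49 over 2 of erythroid cells. Without overlap, 4 of the 5 type 2 cell genes were lower. In the same sense 3 of the 4 fibroblast genes were higher, Dcn by 1.41, and so were 2 of the 2 erythroid genes. Of the 9 monocyte-derived macrophage genes, 2 were lower and 3 higher. The T cell and dendritic cell lists each had 2 of 5 genes lower, the airway list 1 of 6 and the mast cell and basophil list 1 of 2. The B cell and NK cell lists had 0 genes without overlap. S100a9 and Dcn were named after their values were seen. Hepatocyte markers Alb and Apoa1, which would mark liver, a main site of gluconeogenesis, were not well above background on any array. The 1 tested hepatocyte gene differed by -0.01.

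**Figure D4:**
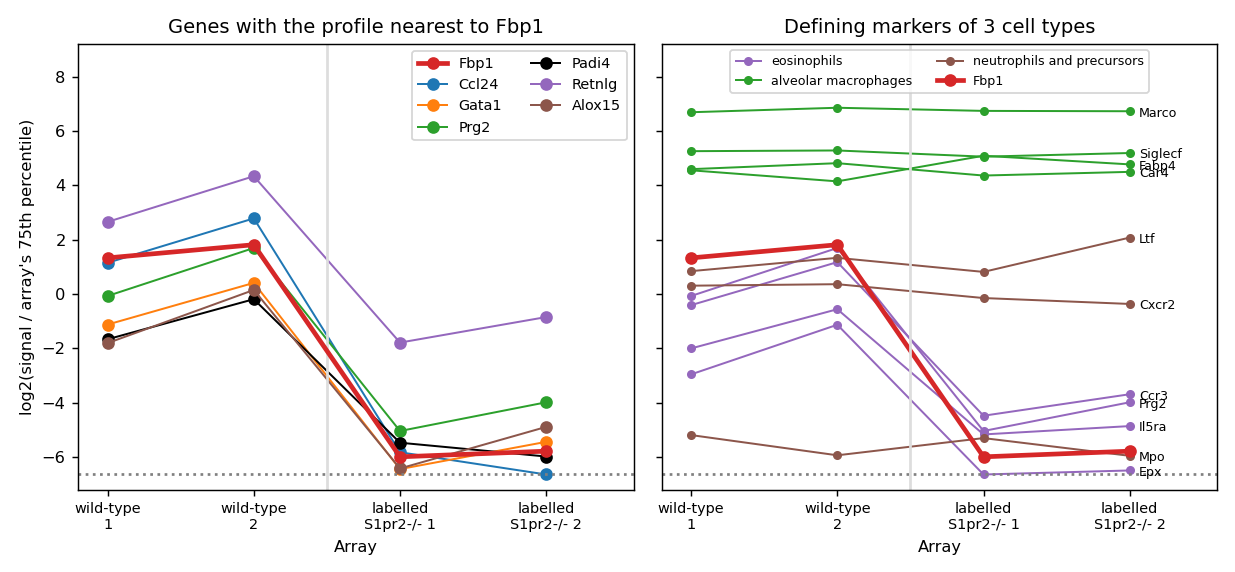
Levels on the 4 arrays (log2 of signal over the 75th percentile) of Fbp1 with the 6 genes nearest to it (left) and of Fbp1 with defining markers of eosinophils, alveolar macrophages and neutrophils (right); the dotted line is the floor, and heights are not comparable between genes. Fbp1 differs by 0.49 between the wild-type arrays and the 6 nearest genes by 1.47 to 1.96, while the summed macrophage markers lie between 189 and 200 times the 75th percentile. Between genotypes the single macrophage markers differ by 0.58 (Fabp4), -0.28 (Car4), -0.15 (Siglecf) and -0.04 (Marco).

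Neighbors of Fbp1 on chromosome 13 gave small differences where they could be measured. Of the 5 named genes on each side, 7 were tested. Of these, Ptch1 and Hsd17b3 lay at the floor on all arrays, and Zfp934, 6720489N17Rik, Gm5141, Fancc and Ercc6l2 differed by -0.05 to 0.11. Fbp2, which lies next to Fbp1, was not well above background.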

How the data were processed

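RNA (200 ng per sample) from BALF cells of 2 wild-type and 2 S1pr2-/- mouse samples was labeled with Cy3 and hybridized to Agilent one-color arrays. Per array, the authors deposited the Feature Extraction file, which holds the background-corrected intensity of every spot and its detection and outlier flags, and for the series a table of log2 values normalized to wild-type. The labels name version 10.7.3.1 of this software and the file headers version 11.0.1.1.

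Spots with an outlier flag (115 to 273 per array) were left out, and 0 spots were saturated. The intensity of each of 43020 non-control spots was scaled to the 75th percentile of its array (2489 to 2817 units), set to at least 0.01, and log2 was taken. Spots of a probe were averaged, and a gene was represented by its brightest tested probe. RefSeq accessions (GRCm38.p6) named 69.6% of probes. Fits used the 27161 probes that had a value on every array and were called well above background on both replicates of either genotype. They were run with limma 3.58.1 (lmFit, eBayes) in R 4.3.3, with Benjamini-Hochberg adjustment over all of them; the fit was tested on simulated data. Ccl24's fold is a bound from the higher of its own value and the array's lowest well-above-background signal. On the array where Ccl24 lay at the floor, the floor was the value used, and the bound holds only for this scaling and background handling. Precision is limited by the 2 arrays per genotype.

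The genes examined, the 6 pathway and 14 marker lists and the alternatives were chosen with earlier results of these data known. The text names every member, S1pr2, the 2 largest differences of each pathway list, defining markers, and the nearest and neighboring genes of Fbp1. Ly6g and Ly6c2 had no named probe here. Some genes of these lists are not reported here.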

Additional observations from a re-analysis of the deposited data

How the results depend on the processing

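The Fbp1 difference was negative under all 14 alternatives, but Fbp1 was selected for a large difference, and several alternatives could not change it. It stayed at -7.46 without a floor, with flags kept, without the filter, and with the replicate block, trended variance or methods' t-test. It was -6.81 with the percentile over detected probes, where both arrays labelled S1pr2-/- fell on the floor, and -5.26 under normexp correction, whose offset of 50 is added to every signal; that correction used the median signal of each spot, since the files hold no mean signal. Leaving out single arrays, it ran from -7.70 to -7.22. The largest absolute difference of the other tested members, 0.20 as reported, became 0.34 after quantile normalization and 0.90 under normexp correction (Pck2 in both), and ran from 0.17 to 0.24 with an array left out.

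Pathway genes at an adjusted p under 0.05 numbered 0 under every alternative that kept all 4 arrays, the methods' t-test and the trended variance included. The count over all tested genes was also 0 under each of these, lower and higher, so the pathway count could not be above 0. At an unadjusted p the 4 lower and 5 higher genes became 1 and 1 under normexp correction, 7 lower with a trended variance and 2 higher by the methods' t-test. With an array left out, 3 to 6 were lower and 1 to 7 higher; the higher count was 3 without wild-type replicate 2 and 1 without S1pr2-/- replicate 2. With the replicate block, 4 were lower and 4 higher, and Fbp1 stayed at -7.46. Replicates share only a number. Over the tested probes, the difference between replicates in wild-type and that under the S1pr2-/- label had a correlation of r = 0.187.

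Over all genes, the percent without overlap rose to between 32.3 and 39.4 lower and between 32.6 and 38.8 higher when a single array stood for a genotype. Unadjusted calls, 918 lower and 700 higher as reported, became 864 and 1095 when only detected probes set the percentile, 635 and 1061 after quantile normalization and 103 and 111 under normexp correction, and without S1pr2-/- replicate 1 the higher calls numbered 1216. Genes more than 2-fold lower and higher, 231 and 32 as reported, became 69 and 979 under normexp correction, which moved the median of all genes to 0.12. The higher ones became 20 with the percentile over detected probes, 75 in the authors' table and 74 without a floor. With an array left out, 225 to 449 genes were more than 2-fold lower, the most without wild-type replicate 2, and 43 to 119 higher. The causes of the other shifts were not tested. Signals close to background limit Fbp1 on the arrays labelled S1pr2-/-, Pck2, and the second probes of Pfkfb3 and Pfkfb4.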
